A study of Macaca fascicularis with 21 samples.

Results

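Late amnion cells and late gastrulating cells of day 16 monkey embryos were compared embryo by embryo. The cells were taken by the deposited annotation: L-AM1 and L-AM2 together form the amnion side, and L-Gast1 and L-Gast2 together form the gastrulating side. They are 89 of the 1453 cells of the series and of the 336 cells of day 16. The amnion side holds 42 cells (18 L-AM1 and 24 L-AM2), and the gastrulating side holds 47 cells (14 L-Gast1 and 33 L-Gast2).

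The amnion is the thin epithelium that encloses the embryo in fluid, and in primates it forms next to the epiblast around the time of implantation. Gastrulation starts in another part of the epiblast, where cells switch on T-box factors, pass through the primitive streak and become mesoderm or endoderm. Keratins and tight junctions are known features of the amniotic epithelium, while loss of epithelial traits and mesoderm factors such as MESP1 are known features of the other path.

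The animals were cynomolgus monkeys (Macaca fascicularis), and the embryos came from blastocysts cultured in vitro without their zona pellucida. Each embryo had its own culture on Matrigel (a gel of basement membrane proteins), and the serum in the medium was raised over time. No genotype, drug or other agent separates the embryos of day 16, so both sides of every embryo shared one culture. Per the labels' protocol, extra-embryonic cells were trimmed off before digestion, yet the annotation of day 16 still holds 86 extraembryonic mesenchyme, 39 endoderm (VE/YE) and 3 trophoblast cells. Single cells were picked by hand, so cell numbers describe what was picked. RNA was read at the 3′ end of transcripts.

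The 4 embryos, numbered by their labels, each gave cells to both sides. Embryos 1 to 4 held 12, 11, 11 and 8 amnion cells and 11, 8, 16 and 12 gastrulating cells. L-AM1 made up 8, 2, 4 and 4 of the amnion cells, and L-Gast1 made up 4, 3, 4 and 3 of the gastrulating cells. Counts were summed per embryo and side, which gave 450226 to 1840580 counts for amnion and 685085 to 2455912 for gastrulating cells. The deepest cell held 17.5% to 49.66% of a sum. Median counts per cell were 68332 ± 33230 (SD, n = 4 embryos) for amnion and 75331 ± 44389 for gastrulating cells, with a 2-sided exact permutation p of 0.875 where 0.125 is the smallest that 4 pairs allow.

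The authors' annotation was itself made from these cells' expression. A gene that separates the sides is therefore no independent evidence that the cells are amnion or gastrulating cells. Levels are counts per 1000000 counts of the sum's own total (CPM). Differences are log2 values, amnion minus gastrulating, from a model with the embryo as a block, and their errors are standard errors. A gene was called at an adjusted p under 0.05 in edgeR's quasi-likelihood test.

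Of the 3 marker genes, VTCN1 was higher in amnion by the test, GABRP was well above the gastrulating cells in every embryo without passing it, and MESP1 was too sparse for it. VTCN1, a surface ligand of the B7 family that restrains T cells, stood at 192, 371, 474 and 329 CPM in the amnion sums of embryos 1 to 4 and at 119.7, 36.5, 50.5 and 17.7 CPM in the gastrulating sums. All 4 amnion values lay above all gastrulating values, with a log2 difference of 2.88 ± 0.55 and an edgeR adjusted p of 0.036. Leaving out embryo 2, 3 or 4 ended this call, with adjusted p up to 0.261.

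GABRP, a subunit of the GABA type A receptor, stood at 82.6, 434, 130.6 and 439.8 CPM in amnion and at 0, 0, 17.5 and 0 CPM in gastrulating cells. The sides did not overlap. The log2 difference was 6.49 ± 1.27 and the edgeR adjusted p was 0.0773, so it was not called. It was called with every cell thinned to 17000 counts, where 3.79% of 3352 genes were called, at an adjusted p of 1.68e-05, and without embryo 3, at 0.00417.

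MESP1, a factor of early mesoderm, had 1 count in amnion and 183 counts in gastrulating cells. The gastrulating values were 55.6, 8.76, 0.814 and 136.1 CPM, and amnion had a count only in embryo 1. The ratio of the summed counts was 183, with a 95% counting interval of 32.4 to 7252. One cell gave 55.19% of the counts, and 9 of 47 gastrulating cells had any. The filter on low counts removed the gene. Without that filter, where edgeR called 1.45% of 21577 genes and 0.579% as higher in gastrulating cells, its adjusted p was 0.000123.

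The subtypes differed in these markers. GABRP averaged 14.7 CPM in L-AM1 and 468 CPM in L-AM2. VTCN1 averaged 141 CPM in L-AM1, 135 CPM in L-Gast1 and 151 CPM in the late epiblast cells of the same embryos, so it did not set L-AM1 apart from these. The 20 amnion markers together summed to 594.8 to 1987 CPM in L-AM1 and to 3358 to 5144 CPM in L-AM2 over the embryos, without overlap. They summed to 329.3 to 860.7 CPM in L-Gast1 and to 685.3 to 2934 CPM in L-Gast2, and both ranges overlapped that of L-AM1. By side the sums were 1932 to 4411 CPM in amnion and 663.8 to 2287 CPM in gastrulating cells. These overlapped too, although amnion was higher within each embryo. Each side's sum is a mixture of its subtypes.

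Across 9042 genes tested, edgeR called 73 (0.807%), of which 69 have a symbol. Amnion was higher for 56 genes (0.619%) and gastrulating cells for 17 (0.188%), while 945 genes had an unadjusted p under 0.05. Another tool, DESeq2, called 449 genes (4.97%) on the same sums, among them 71 of these 73. The median log2 difference of all tested genes was -0.03. With L-AM1 alone as the amnion side, 0 of 8354 genes were called in the 3 embryos with enough cells, and 402 had an unadjusted p under 0.05. With L-AM2 alone, 246 of 7978 were called (3.08%). With L-Gast1 alone as the gastrulating side, 133 of 6320 were called (2.1%), and with L-Gast2 alone 93 of 8663 (1.07%).

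The count also depended on single embryos. It was 28 without embryo 2 and 143 without embryo 4, and 22 of the 69 genes with a symbol were called in all 4 fits that left out 1 embryo. Those 22 were ATP12A, BMPER, COX4I2, CXCL14, DLK1, DLK2, DNAH11, EPAS1, EZR, FN1, KRT18, KRT8, LITAF, NCAM2, PCSK5, SIPA1L2, SLC7A3, SPNS2, TMEM88, TPM1, VAC14 and WLS. BMPER, SIPA1L2 and TMEM88 are the 3 of them that were higher in gastrulating cells.

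The genes with the largest called differences on the amnion side were nearly silent in the gastrulating cells. DLK1 and DLK2 are membrane proteins with EGF-like repeats, related to the ligands of NOTCH receptors. DLK1 stood at 305.9, 1298, 198.3 and 291 CPM in amnion and at 5.34, 8.76, 2.44 and 16.6 CPM in gastrulating cells, a log2 difference of 5.79 ± 0.51 (edgeR adjusted p = 0.001). DLK2 stood at 64.7, 304.9, 235 and 166.6 CPM in amnion and at 0, 1.46, 4.89 and 1.11 CPM in gastrulating cells, a difference of 6.62 ± 0.65 (edgeR adjusted p = 0.00114). For both genes each amnion value exceeded the highest gastrulating value by far, and embryo 2 was the highest amnion embryo.

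EPAS1 encodes HIF-2α, an oxygen-regulated transcription factor. Its amnion values were 90.7, 194.8, 128.5 and 197.7 CPM and its gastrulating values 6.41, 0, 0.814 and 1.11 CPM, a log2 difference of 6.30 ± 0.86 (edgeR adjusted p = 0.00482). ATP12A, the catalytic subunit of the non-gastric proton and potassium pump, had 76.6, 172.6, 122.1 and 470.9 CPM in amnion and 0, 0, 2.44 and 21 CPM in gastrulating cells. Its difference was 5.81 ± 0.71 (edgeR adjusted p = 0.00277). Embryo 4 was highest on both sides for ATP12A, and the sides did not overlap for either gene.

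SPNS2 exports the lipid signal sphingosine-1-phosphate. It had 97.3, 377.7, 227.3 and 224.3 CPM in amnion and 3.2, 27.7, 8.14 and 1.11 CPM in gastrulating cells, a log2 difference of 4.91 ± 0.59 (edgeR adjusted p = 0.00261). NCAM2, a neural cell adhesion molecule, had 42.4, 141.8, 142.6 and 262.1 CPM in amnion and 1.07, 2.92, 13 and 5.53 CPM in gastrulating cells, a difference of 4.76 ± 0.62 (edgeR adjusted p = 0.00377). The lowest amnion value of each gene was more than the highest gastrulating value.

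LTF, the iron-binding milk protein lactotransferrin, had 350 counts in amnion and 2 in gastrulating cells. Its amnion values were 44, 117.2, 74.1 and 35.5 CPM, and only embryo 3 had any gastrulating count. The ratio of summed counts was 175, with a 95% interval of 48.2 to 1454 (edgeR adjusted p = 0.00453). DNAH11, a motor protein of cilia, had 279 counts against 3, a ratio of 93.2 (31.6 to 454.6), with 33.7 to 148.8 CPM over the amnion sums (edgeR adjusted p = 0.0045). LPCAT2, which acylates lysophospholipids, had 203 counts against 2, a ratio of 101.7 (27.8 to 845.6), with 24.6 to 119.9 CPM in amnion (edgeR adjusted p = 0.0116).

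MPO, myeloperoxidase of neutrophil granules, ranged from 33.9 to 156.8 CPM in amnion and from 0 to 3.67 CPM in gastrulating cells, a log2 difference of 6.24 ± 1.11 (edgeR adjusted p = 0.025). MAB21L3 ranged from 22.8 to 102.3 CPM against 0 to 2.04 CPM, with a difference of 6.55 ± 1.03 (edgeR adjusted p = 0.0116). TMEFF2, a membrane protein with follistatin-like domains, had 125.5, 30.9, 124.9 and 139.9 CPM in amnion and at most 11.1 CPM in gastrulating cells, a difference of 4.66 ± 0.82 (edgeR adjusted p = 0.0245).

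Calls in this group were lost without single embryos as follows. LTF (adjusted p up to 0.0747), LPCAT2 (0.0748) and MAB21L3 (0.123) were not called without embryo 2 or without embryo 3. MPO was not called without embryo 1 or 2 (up to 0.19). TMEFF2 was not called without embryo 1, 2 or 3 (up to 0.138).

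**Figure D1:**
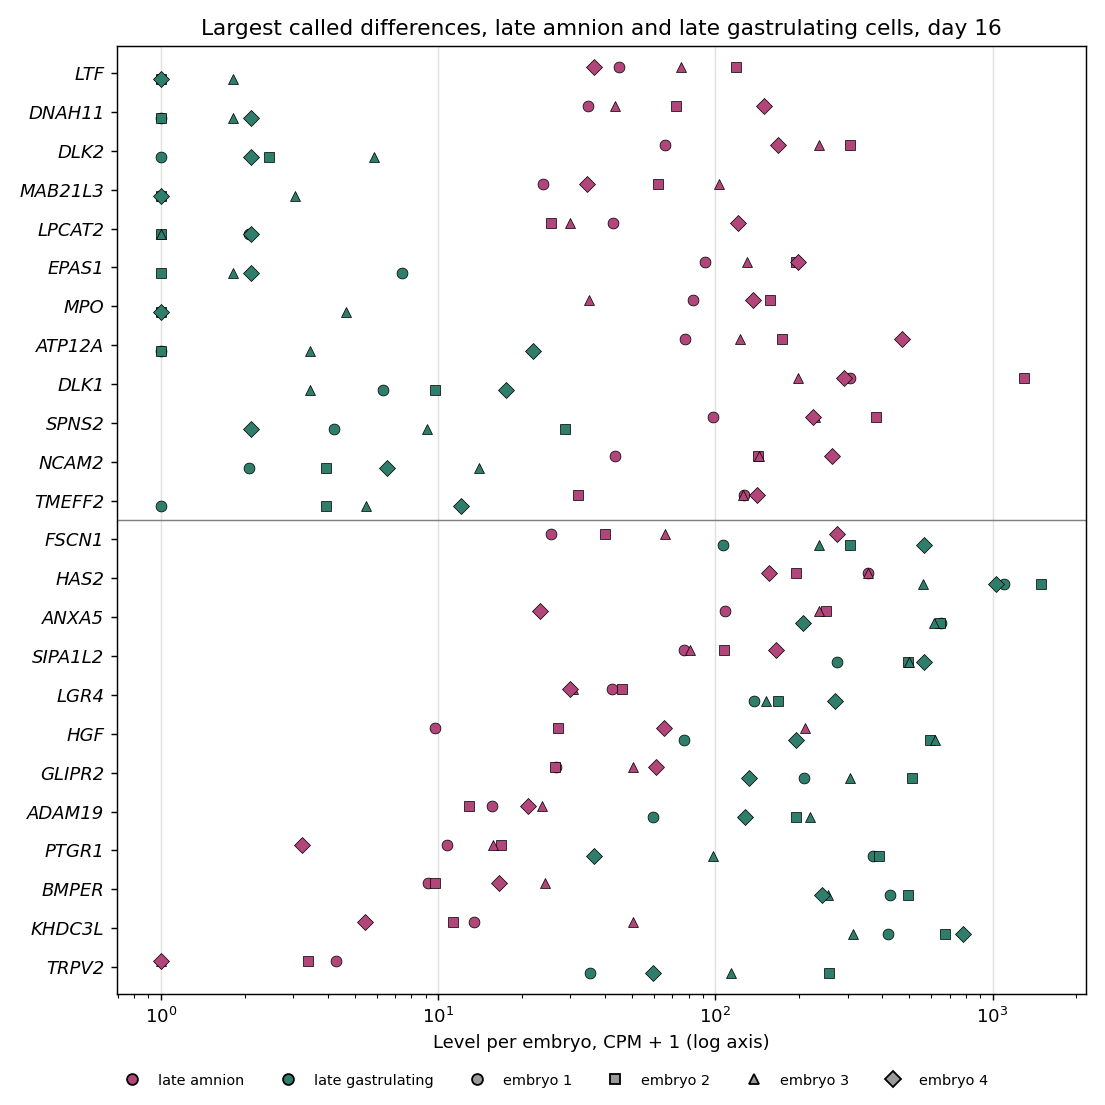
Level in CPM plus 1 on a log axis for the 12 genes with the largest called difference in each direction, with 1 marker shape per embryo and 1 colour per side. Genes above the line were higher in amnion and those under it in gastrulating cells; for ANXA5, HGF and FSCN1 the embryos of both sides overlap, and for the other 21 they do not.

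On the gastrulating side, BMPER had the firmest call of the 12 genes with the largest differences. BMPER is a secreted protein that binds BMPs and tunes their signal. It stood at 427.4, 494.8, 254.9 and 242.3 CPM in gastrulating cells and at 8.15, 8.71, 23.3 and 15.6 CPM in amnion, a log2 difference of -4.74 ± 0.51 (edgeR adjusted p = 0.00143). Every gastrulating value was above 10 times the highest amnion value. Of the gastrulating counts of BMPER, 10 were in L-Gast1 and 1574 in L-Gast2. It averaged 12.46 CPM in L-Gast1, 11.49 CPM in L-AM1 and 13.25 CPM in L-AM2, so L-Gast1 stood at the amnion level. SIPA1L2, an activator of the GTPase activity of Rap proteins, had 274.6, 493.4, 499.2 and 566.5 CPM in gastrulating cells and 76.1, 106.1, 79.7 and 164.4 CPM in amnion, a difference of -2.14 ± 0.27 (edgeR adjusted p = 0.0034). Of its gastrulating counts 67 were in L-Gast1 and 2266 in L-Gast2, and with L-Gast1 alone the difference of SIPA1L2 turned to 1.09.

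KHDC3L, known as a member of the maternal complex under the membrane of the oocyte, had 418.8, 671.4, 312.7 and 780 CPM in gastrulating cells and 12.5, 10.3, 49.4 and 4.44 CPM in amnion. Its log2 difference was -5.08 ± 0.67 (edgeR adjusted p = 0.00634). TRPV2, a cation channel, had 34.2, 256.9, 112.4 and 58.6 CPM in gastrulating cells and 3.26, 2.38, 0 and 0 CPM in amnion, a difference of -6.01 ± 0.97 (edgeR adjusted p = 0.0133). The sides did not overlap for either gene. PTGR1, a prostaglandin reductase, ranged from 35.4 to 388.3 CPM in gastrulating cells and from 2.22 to 15.8 CPM in amnion, a difference of -4.19 ± 0.57 (edgeR adjusted p = 0.00482).

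HAS2, which makes the matrix sugar hyaluronan, had 1099, 1501, 559.9 and 1027 CPM in gastrulating cells and 354.8, 194.8, 354.3 and 155.5 CPM in amnion, a log2 difference of -2.01 ± 0.34 (edgeR adjusted p = 0.0206). LGR4, a receptor for R-spondins that strengthens WNT signals, had 136.8, 167.9, 151.1 and 268.8 CPM in gastrulating cells and 41.3, 45.1, 29.6 and 28.9 CPM in amnion, a difference of -2.28 ± 0.43 (edgeR adjusted p = 0.0324). Both genes were detected on both sides, and no amnion value reached a gastrulating one. ADAM19, a membrane-bound metalloprotease, differed by -3.00 ± 0.52 (edgeR adjusted p = 0.0221) and GLIPR2 by -2.81 ± 0.51 (edgeR adjusted p = 0.027), both again without overlap.

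HGF, the ligand of the MET receptor, had 75.9, 595.5, 621 and 194.7 CPM in gastrulating cells and 8.69, 26.1, 209.6 and 64.4 CPM in amnion. Amnion of embryo 3 was above the gastrulating cells of embryos 1 and 4, although gastrulating cells were higher within each embryo. The log2 difference was -2.66 ± 0.51 (edgeR adjusted p = 0.0355), and with L-Gast1 alone that of HGF turned to 1.56. Levels also overlapped for ANXA5, an annexin that binds membrane phospholipids (-2.09 ± 0.35, edgeR adjusted p = 0.0164). The third gene with overlap was FSCN1, which bundles actin filaments, with 105.8 to 565.4 CPM in gastrulating cells and 24.45 to 273.2 CPM in amnion (edgeR adjusted p = 0.0273).

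Except for BMPER and SIPA1L2, each of these 12 calls was lost without at least 1 embryo. Embryo 2 was such an embryo for all 10. Embryo 1 was another for KHDC3L (adjusted p up to 0.0747), PTGR1 (0.1) and ANXA5 (0.132), and embryo 3 was for TRPV2 (0.216) and ADAM19 (0.205). For GLIPR2 (0.216), HGF (0.173), LGR4 (0.175) and FSCN1 (0.181) both embryos 1 and 3 were, and for HAS2 (0.191) embryos 1 and 4 were. Over the 24 genes of both directions, the cell with most counts of a gene gave 10.85% to 41.05% of them on the higher side.

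The remaining 37 called genes that are in no list were looked at after their values were seen, and a few are given for their known roles. WLS, which carries WNT ligands to the cell surface, had 328.2, 1110, 947.2 and 744.1 CPM in amnion and 37.4, 45.3, 187.7 and 89.6 CPM in gastrulating cells, a log2 difference of 3.23 ± 0.35 (edgeR adjusted p = 0.00143). The chemokine CXCL14 had 109.7, 1197, 602.7 and 657.4 CPM in amnion and 2.14, 103.6, 103 and 18.8 CPM in gastrulating cells, a difference of 3.95 ± 0.46 (edgeR adjusted p = 0.00198). Neither gene overlapped between the sides. CXCL12, another chemokine, was higher in amnion by 2.93 ± 0.55 (edgeR adjusted p = 0.0318), a call lost without embryo 2, 3 or 4 (up to 0.245).

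EZR and RDX encode ezrin and radixin, relatives that tie the cell membrane to actin, and they were called in opposite directions. EZR had 704.1, 1260, 1122 and 1071 CPM in amnion and 351.5, 284.6, 266.3 and 224.6 CPM in gastrulating cells, a log2 difference of 1.86 ± 0.24 (edgeR adjusted p = 0.00377). RDX had 91.8, 114, 163 and 362 CPM in amnion and 390, 888.9, 457.7 and 676 CPM in gastrulating cells, a difference of -1.87 ± 0.33 (edgeR adjusted p = 0.0241). TMEM88, a membrane protein that dampens WNT signals, had 83.7, 312, 242.1 and 197.7 CPM in amnion and 400.6, 1274, 946.3 and 552.1 CPM in gastrulating cells, a difference of -1.95 ± 0.22 (edgeR adjusted p = 0.0017). The sides did not overlap for any of these 3 genes, and the call of RDX was lost without embryo 1, 2 or 3 (up to 0.157). With L-Gast1 alone the difference turned to 2.19 for TMEM88 and 0.04 for RDX.

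CA12, a carbonic anhydrase at the cell surface, had 152.1, 275.6, 152.5 and 102.2 CPM in amnion and 4.42 to 25.2 CPM in gastrulating cells, a log2 difference of 3.57 ± 0.51 (edgeR adjusted p = 0.00634). SLC7A3, a transporter of cationic amino acids, had 504.7, 301.7, 209.6 and 102.2 CPM in amnion and 5.53 to 51.3 CPM in gastrulating cells, a difference of 3.38 ± 0.42 (edgeR adjusted p = 0.00314). EDNRB, an endothelin receptor, had 105.9, 279.5, 248.4 and 55.5 CPM in amnion and 2.92 to 19.5 CPM in gastrulating cells, a difference of 4.18 ± 0.61 (edgeR adjusted p = 0.00753). In all 3 the lowest amnion value was above the highest gastrulating value. Without embryo 2 the call of CA12 was lost (0.106), and without embryo 2 or 3 that of EDNRB (up to 0.072).

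Gene lists were read against the median of all genes and the called shares given above. A gene could pass the filter on low counts through its higher side alone. A shared sign among the tested members of a list is therefore no separate test of that list. Of 20 amnion markers 15 were tested, and GATA3 and VTCN1 were called higher in amnion. The median log2 difference of the 15 was 2.46, with 12 positive and 3 negative. In 6 of the 15 the amnion values were all above the gastrulating ones, against 3.93% of all genes tested. GATA3, a zinc finger factor of amnion and trophoblast, had 69, 178.2, 183.5 and 255.4 CPM in amnion and 17.1, 29.2, 50.1 and 23.2 CPM in gastrulating cells, a difference of 2.46 ± 0.46 (edgeR adjusted p = 0.0324). That call was lost without embryo 1, 2 or 3 (up to 0.232).

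ISL1, a LIM homeodomain factor, had 126.1, 165.5, 131.3 and 68.9 CPM in amnion and 13.9, 4.38, 26.5 and 0 CPM in gastrulating cells. The sides did not overlap, and the log2 difference of 3.92 ± 0.80 missed the threshold (edgeR adjusted p = 0.0513). It was called in thinned cells (0.00278). DLX5, another homeodomain factor, had 22.2 to 55.8 CPM against 0 to 2.92 CPM (4.25 ± 0.98, edgeR adjusted p = 0.082), and TFAP2A, an AP-2 factor of surface epithelia, had 17.8 to 311.2 CPM against 3.2 to 19 CPM (2.93 ± 0.81, edgeR adjusted p = 0.151). BMP4, also on that list, overlapped between the sides, with -0.04 ± 0.33 (edgeR adjusted p = 0.985).

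The epithelial junction and keratin list had the most calls. Of its 22 genes 17 were tested, all 17 differences were positive, their median was 1.63, and 4 were called higher in amnion. The summed level of the 22 genes was 5540, 12320, 6540 and 8096 CPM in amnion and 2517, 3721, 3034 and 2402 CPM in gastrulating cells. The amnion sums were above all gastrulating sums. Within amnion the list summed to 4099, 1853, 2286 and 2711 CPM in L-AM1, which overlapped the gastrulating sums, and to 10320 to 14330 CPM in L-AM2, which did not.

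KRT18 and KRT8 pair to form the filaments of simple epithelia. KRT18 had 1137, 2860, 1542 and 1364 CPM in amnion and 241.5, 553.2, 599.8 and 304.3 CPM in gastrulating cells, a log2 difference of 2.02 ± 0.18 (edgeR adjusted p = 0.001). KRT8 had 773.7, 2426, 1204 and 1930 CPM in amnion and 336.5, 633.5, 387.2 and 555.4 CPM in gastrulating cells, a difference of 1.63 ± 0.17 (edgeR adjusted p = 0.00143). Both were called without any 1 embryo. With L-AM1 alone as the amnion side both directions turned, to -0.50 for KRT18 and -0.27 for KRT8, neither called. Keratin genes are a multigene family, and reads shared between copies could be split by the counter.

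EPCAM, an adhesion molecule of epithelia, had 454.7, 1052, 538.5 and 557.5 CPM in amnion and 94, 195.6, 249.2 and 121.7 CPM in gastrulating cells, a log2 difference of 1.99 ± 0.27 (edgeR adjusted p = 0.00453). Without embryo 2 its adjusted p was 0.0748. KRT19 differed by 0.95 ± 0.15 (edgeR adjusted p = 0.0116) with overlapping levels, and its call was lost without embryo 2 or 3 (up to 0.1). With L-AM1 alone KRT19 stood at -0.02. CDH3, or P-cadherin, differed by 1.42 ± 0.32 (edgeR adjusted p = 0.0792). CDH1, or E-cadherin, was low on both sides, with 4.44 to 64.1 CPM in amnion and 8.55 to 29.2 CPM in gastrulating cells (0.66 ± 0.82, edgeR adjusted p = 0.863).

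Of 16 genes of the mesenchymal transition list 10 were tested. Their median was -1.20, with 3 positive and 7 negative, and the single call ran the other way. The summed level of the 16 genes was 2047, 4627, 3058 and 2510 CPM in amnion and 1097, 2115, 1914 and 1896 CPM in gastrulating cells. This sum includes FN1 and was higher in amnion within each embryo. FN1, the matrix protein fibronectin, had 1286, 2087, 1803 and 1455 CPM in amnion and 206.2, 189.8, 531.4 and 536.6 CPM in gastrulating cells, a log2 difference of 2.30 ± 0.29 (edgeR adjusted p = 0.00313). The extraembryonic mesenchyme of the same embryos had 4217 ± 1141 CPM of FN1 (SD, n = 4), more than either side. TGFBI, also on that list, was higher in amnion within each embryo but was not called (2.47, edgeR adjusted p = 0.0851). CDH11, a mesenchymal cadherin, had 16.8 to 51.1 CPM in amnion and 112.8 to 274.4 CPM in gastrulating cells without overlap (-2.27 ± 0.48, edgeR adjusted p = 0.06). CDH2, or N-cadherin, had 11.9 to 35.3 CPM against 40.6 to 93.4 CPM, also without overlap (-1.86 ± 0.61, edgeR adjusted p = 0.244).

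No gene of the streak and mesoderm lists was called, and most of their members had too few counts to be tested. Among 20 streak genes, 4 were tested, and their median log2 difference was -2.20. TBXT, the T-box factor brachyury, had 1 count in amnion and 119 in gastrulating cells, a ratio of 118.8 (20.9 to 4729). Its gastrulating values were 1.07, 10.2, 15.9 and 79.7 CPM. One cell gave 50.42% of its gastrulating counts, and 11 of 47 gastrulating cells had any. MIXL1, a homeobox factor of the streak, had 3 counts against 41, a ratio of 13.6 (4.35 to 68.8). EOMES, a T-box factor upstream of mesoderm and endoderm, overlapped between the sides (-2.26 ± 1.18, edgeR adjusted p = 0.56). LHX1 differed by -3.01 ± 1.39 (edgeR adjusted p = 0.487) and CDX2 by -2.13 ± 0.75 (edgeR adjusted p = 0.293).

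Among 23 nascent mesoderm genes, 9 were tested, all 9 differences were negative and their median was -2.21. Members could be tested through gastrulating counts alone, so the shared sign is no test of the list. DLL3 had 9, 2, 3 and 0 counts in amnion and 32, 11, 171 and 93 in gastrulating cells of embryos 1 to 4. In 3 of the 9 the gastrulating values did not overlap with amnion, against 2.3% of all genes tested. APLNR, the apelin receptor of early mesoderm, had 583.3, 668.5, 267.5 and 461.4 CPM in gastrulating cells and 0.543, 0.792, 36 and 15.6 CPM in amnion. Its log2 difference of -6.09 ± 1.37 was not called (edgeR adjusted p = 0.164), was called in thinned cells (0.00107) and was not called without the filter (0.646). GATA6, a factor of mesoderm and endoderm, had 66.2, 116.8, 101.4 and 89.6 CPM in gastrulating cells and 25.5, 5.54, 11.3 and 4.44 CPM in amnion (-3.21 ± 0.69, edgeR adjusted p = 0.0658).

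PDGFRA, a growth factor receptor of mesoderm, had 112 gastrulating counts and 0 amnion counts, so it was at least 37.3-fold higher in gastrulating cells against a floor of 3 counts over the amnion side. HAND1, a basic helix-loop-helix factor, was high on both sides. It had 164.1, 321.5, 290.8 and 857.3 CPM in amnion and 435.9, 400, 566.4 and 283.2 CPM in gastrulating cells (-0.33 ± 0.42, edgeR adjusted p = 0.867). SNAI2 had no count on either side, and TBX6 had 51 counts in amnion and 7 in gastrulating cells.

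No gene of the pluripotency list was called. Of its 18 genes 17 were tested, and the median log2 difference was 0.10. POU5F1, also called OCT4, had 822.6, 448.2, 515.9 and 470.9 CPM in amnion and 307.7, 200.1, 308.6 and 472.4 CPM in gastrulating cells (0.82 ± 0.26, edgeR adjusted p = 0.214). NANOG (-0.03 ± 0.60, edgeR adjusted p = 0.994) and SOX2 (1.36 ± 0.69, edgeR adjusted p = 0.544) overlapped between the sides too. LIN28B had the lowest p of the list (-1.52, edgeR adjusted p = 0.188).

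**Figure D2:**
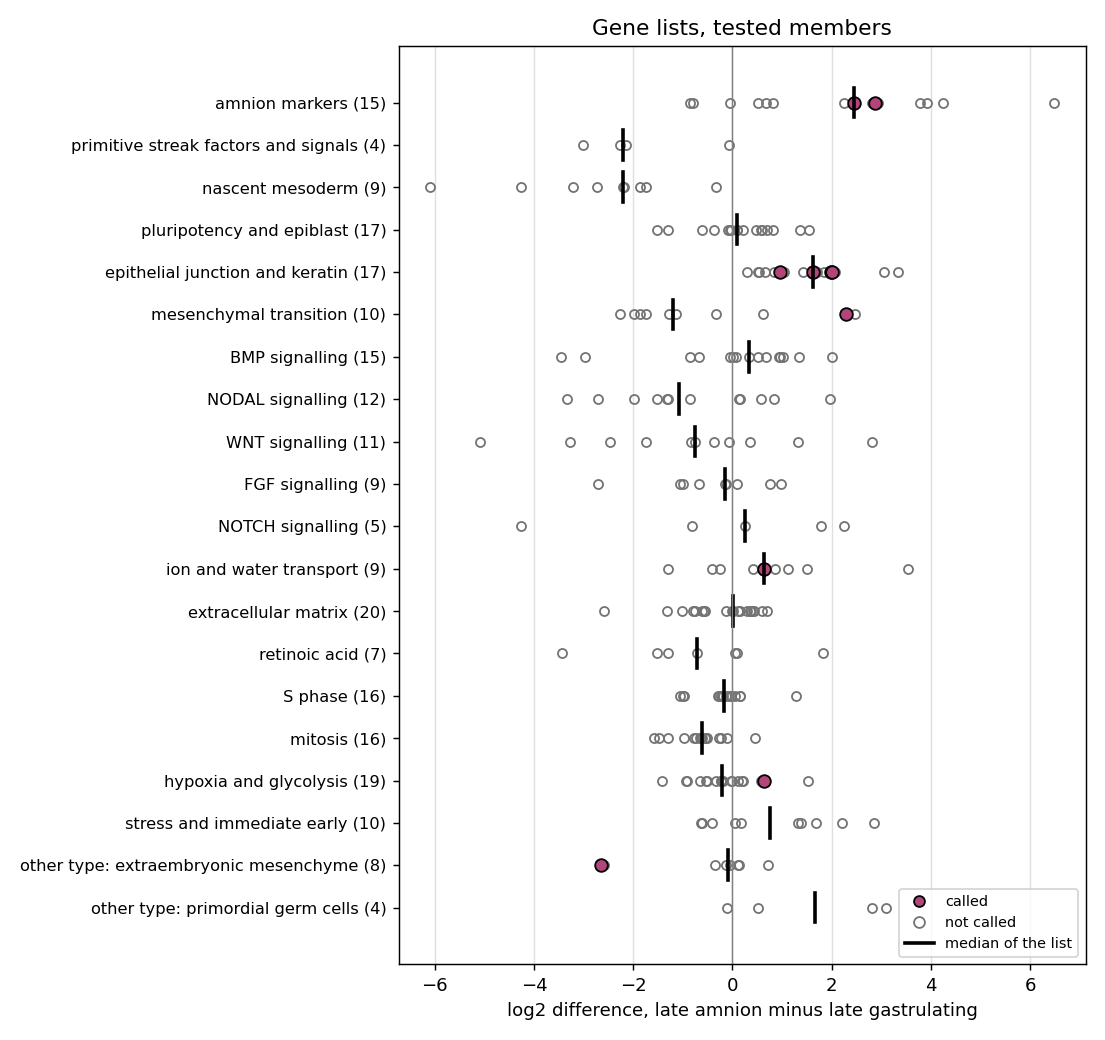
Log2 difference, amnion minus gastrulating cells, of the tested genes of each list with at least 4 tested, with the number tested after the name, called genes filled and the list median as a bar. The tested epithelial junction and keratin genes lie right of 0 in all 17 cases, and the 9 tested nascent mesoderm genes lie left of 0. Pluripotency, matrix and S phase genes centre near 0. A gene could be tested through counts on its higher side alone.

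No gene of the BMP, NODAL, WNT, FGF or NOTCH lists was called, out of 15, 12, 11, 9 and 5 tested; over all genes, 945 of 9042 had an unadjusted p under 0.05. List medians were 0.33 for BMP, -1.07 for NODAL, -0.74 for WNT, -0.15 for FGF and 0.25 for NOTCH. Among ligands, BMP2 had 47, 115.3, 218.7 and 35.4 CPM in gastrulating cells and 5.43, 1.58, 30.4 and 26.7 CPM in amnion, without overlap (-2.96 ± 0.84, edgeR adjusted p = 0.16). NODAL itself had 107 gastrulating counts and 9 amnion counts and was not tested, and WNT3 overlapped between the sides (-0.07 ± 1.17, edgeR adjusted p = 0.994).

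Among modulators and targets, FST, or follistatin, which traps activins, had 250, 421.8, 315.2 and 305.4 CPM in gastrulating cells and 129.3, 131.5, 176.4 and 46.6 CPM in amnion (-1.52 ± 0.36, edgeR adjusted p = 0.0874). FURIN, a protease that matures such ligands, differed by -3.33 (edgeR adjusted p = 0.0893). RNF43, which removes WNT receptors from the membrane, had 61.4 to 129.9 CPM in amnion and 4.38 to 17.7 CPM in gastrulating cells (2.81 ± 0.66, edgeR adjusted p = 0.0864). Of the 11 WNT genes tested, 3 differences were positive and 8 negative. Next by p after RNF43 were LGR5 (-3.27, edgeR adjusted p = 0.18), SFRP1 (1.325, edgeR adjusted p = 0.215) and RSPO3 (-5.09, edgeR adjusted p = 0.252). ID2, a target of BMP signals, was higher in amnion in all 4 embryos without overlap (0.93 ± 0.24, edgeR adjusted p = 0.117). None of these passed the test, although the sides were apart in FST, FURIN, RNF43 and ID2.

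SLC2A1, the glucose transporter GLUT1, was the single call in both the list of ion and water transport (9 tested) and the list of hypoxia and glycolysis (19 tested). It had 1937, 3719, 2121 and 1077 CPM in amnion and 1192, 2376, 1485 and 635.1 CPM in gastrulating cells. Levels overlapped between embryos, and amnion was higher in 4 of 4 (0.64 ± 0.12, edgeR adjusted p = 0.027). The call was lost without embryo 1, 2 or 3 (up to 0.216), and with L-AM1 alone the difference of SLC2A1 was -0.15. ENO1, a glycolytic enzyme, pointed the other way at -0.52 ± 0.12 (edgeR adjusted p = 0.0792).

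No gene was called among 20 matrix, 7 retinoic acid, 16 S phase, 16 mitosis, 10 stress and 3 HOX genes tested. Of the mitosis genes 15 of 16 differences were negative, with a median of -0.62, while the S phase median was -0.17. MKI67, the proliferation antigen, had 42.2 to 118.4 CPM in amnion and 102.2 to 164.5 CPM in gastrulating cells (-0.65 ± 0.41, edgeR adjusted p = 0.638). Stress and immediate early genes had a median of 0.75, led by IER3 (2.85 ± 0.81, edgeR adjusted p = 0.169).

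Markers of the other cell types in these embryos were read on both sides. The 11 trophoblast genes summed to 26.6 to 93.3 CPM in amnion and 204.1 to 273 CPM in gastrulating cells, without overlap. CYP19A1 had 1 count in amnion and 0 in gastrulating cells, LHB 0 and 2, and GCM1 5 and 6. Of their sum on the gastrulating side, SLC40A1 held 440 counts and CGA 265. In embryo 4, however, HPGD had 181 gastrulating counts, against 8 of SLC40A1 and 33 of CGA. HPGD had 1, 0 and 0 in the gastrulating sums of embryos 1 to 3. The lack of overlap thus depended on HPGD in embryo 4. The 10 endoderm genes summed to 26.9 to 172.2 CPM in amnion and 55 to 172.6 CPM in gastrulating cells, with HNF4A and SERPINA1 at 0 on both sides.

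The 10 mesenchyme genes summed to 358.6 to 1416 CPM in amnion and 335.5, 3372, 1358 and 832 CPM in gastrulating cells, and HGF was the 1 call among 8 tested. The 9 germ cell genes summed to 115.5 to 384.7 CPM in amnion and 56.9 to 418.2 CPM in gastrulating cells, where SOX17 alone had 249 gastrulating counts, all in embryo 4, against 3 in amnion. The part of such cells in the calls was not tested by gene. With the 147 tested genes left out that were at least 8 times higher in another type, 78 genes were called in place of 73.

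The subtypes were then compared within each side. Only 3 embryos had 3 or more cells of both amnion subtypes, and 6 of 6803 genes were called (0.0882%), all higher in L-AM2. KRT18 had 495.6, 181.3 and 173.7 CPM in L-AM1 of embryos 1, 3 and 4 and 3264, 2894 and 2676 CPM in L-AM2, a log2 difference (L-AM1 minus L-AM2) of -3.50 ± 0.34 (edgeR adjusted p = 0.00308). KRT8 differed by -2.79 ± 0.33 (edgeR adjusted p = 0.0114), CXCL14 by -3.63 ± 0.46 (0.0138), FN1 by -2.10 ± 0.30 (0.026) and ATP12A by -4.68 ± 0.71 (0.0428). The sixth gene has no symbol. These 5 were also called without any 1 of the 3 embryos, where the number of calls was 21 to 108.

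Pluripotency genes lay the other way within amnion, with no call among 13 tested and a median of 1.88, against 0.08 for all genes tested. DNMT3B, a DNA methyltransferase high in epiblast, had 703.5, 737.3, 689.7 and 1008 CPM in L-AM1 and 98.5, 63.2, 63.3 and 14 CPM in L-AM2, without overlap. The test over 3 embryos gave 3.94 ± 0.67 (edgeR adjusted p = 0.0602). The late epiblast of these embryos had 1031 ± 143.3 CPM of it (SD, n = 4). POU5F1 averaged 845 CPM in L-AM1, 407 CPM in L-AM2 and 872.2 CPM in late epiblast.

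Between the gastrulating subtypes, 151 of 6189 genes were called (2.44%) in 4 embryos. L-Gast1 was higher for 48 genes (0.776%) and L-Gast2 for 103 (1.66%). Without embryo 3 the count was 34, and 95 were called without the embryo as a block. Pluripotency genes were higher in L-Gast1 for 6 of 15 tested, with a median of 2.06. POU5F1 had 585.3, 499.8, 753.1 and 917 CPM in L-Gast1 and 94.5, 101, 183.2 and 402.2 CPM in L-Gast2 (2.06 ± 0.37, edgeR adjusted p = 0.000941).

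GDF3, a TGF-β family ligand of pluripotent cells, had 307.4, 170.5, 133.2 and 316.5 CPM in L-Gast1 and 1.89, 1.94, 10.4 and 15.4 CPM in L-Gast2 (4.99 ± 0.74, edgeR adjusted p = 9.58e-05). It had the largest called difference towards L-Gast1, followed by FAM19A4 (4.98), STARD13 (4.80), SORCS3 (4.31) and SMIM14 (4.24). These 4 calls were lost without embryo 3 and at least 1 other, with adjusted p up to 0.342, while that of GDF3 stood without any 1 embryo. The call of POU5F1 was lost without embryo 3 (0.0562).

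Of the genes tested, 2 of 7 nascent mesoderm genes (HAND1 and HAND2) and 3 of 9 mesenchymal transition genes (VIM, CDH11 and SPARC) were called higher in L-Gast2, and none of either list in L-Gast1. Of 11 BMP genes, BMP2 and BMP4 were called higher in L-Gast2 and ID1, a target of BMP signals, in L-Gast1 (1.75 ± 0.46, edgeR adjusted p = 0.0315, lost without embryo 1, 2 or 3 with up to 0.369). HAND1 had 767, 524.3, 715.2 and 324.1 CPM in L-Gast2 and 4.92, 23.5, 38.9 and 24.3 CPM in L-Gast1 (-4.76 ± 0.54, edgeR adjusted p = 5.82e-06). BMP4 had 710.3, 640.8, 248 and 78.1 CPM in L-Gast2 and 0, 0, 3.7 and 16.2 CPM in L-Gast1 (-6.51 ± 0.92, edgeR adjusted p = 0.000391). CDH11 had 272, 359.2, 144.1 and 194.7 CPM in L-Gast2 and 0, 17.6, 1.85 and 8.12 CPM in L-Gast1 (-5.60 ± 0.81, edgeR adjusted p = 6.98e-05). No L-Gast1 value reached an L-Gast2 value in these 3 genes, and their calls stood without any 1 embryo.

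VIM, or vimentin, the filament protein of mesenchyme, was called higher in L-Gast2 (-3.11 ± 0.51, edgeR adjusted p = 0.000425), and so were HGF (-4.74 ± 0.61, 2.2e-05) and the keratin KRT8 (-2.80 ± 0.42, 0.000117). All 3 were called without any 1 embryo. Of 16 matrix genes tested, COL4A1, COL4A2, COL6A1 and NID2 were called, all higher in L-Gast2. Each of these calls was lost without embryo 2 or 3, and those of COL4A2 and NID2 also without embryo 1 (up to 0.326). BMP2 had 1 count in L-Gast1 and 691 in L-Gast2, a ratio of 229.2 (41 to 9064), called at 0.000413 and lost without embryo 3 (0.0742).

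The largest called differences towards L-Gast2 besides BMP2 were in genes with 0 counts in L-Gast1. Against a floor of 3 counts over that subtype, FOSL2, a partner in the AP-1 factor, was at least 45.9-fold higher in L-Gast2. PITX1, a homeobox factor, was at least 35.3-fold higher, ANG, a secreted ribonuclease, at least 22.7-fold, and NAALAD2 at least 18.1-fold. All 4 calls were lost without embryo 3, with adjusted p up to 0.387.

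Most genes called between the sides had their higher mean in subtype 2. Mean levels were higher in L-AM2 than in L-AM1 for 51 of the 52 genes with a symbol called higher in amnion, against 50.65% of all genes tested, and VAC14 was the exception. They were higher in L-Gast2 than in L-Gast1 for 16 of the 17 called higher in gastrulating cells, against 53.84% of all, with KHDC3L as the exception. KHDC3L averaged 1578 CPM in L-Gast1 and 266.5 CPM in L-Gast2. As the sums of a side contain the subtypes, these counts describe the calls and are no further test of them.

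**Figure D3:**
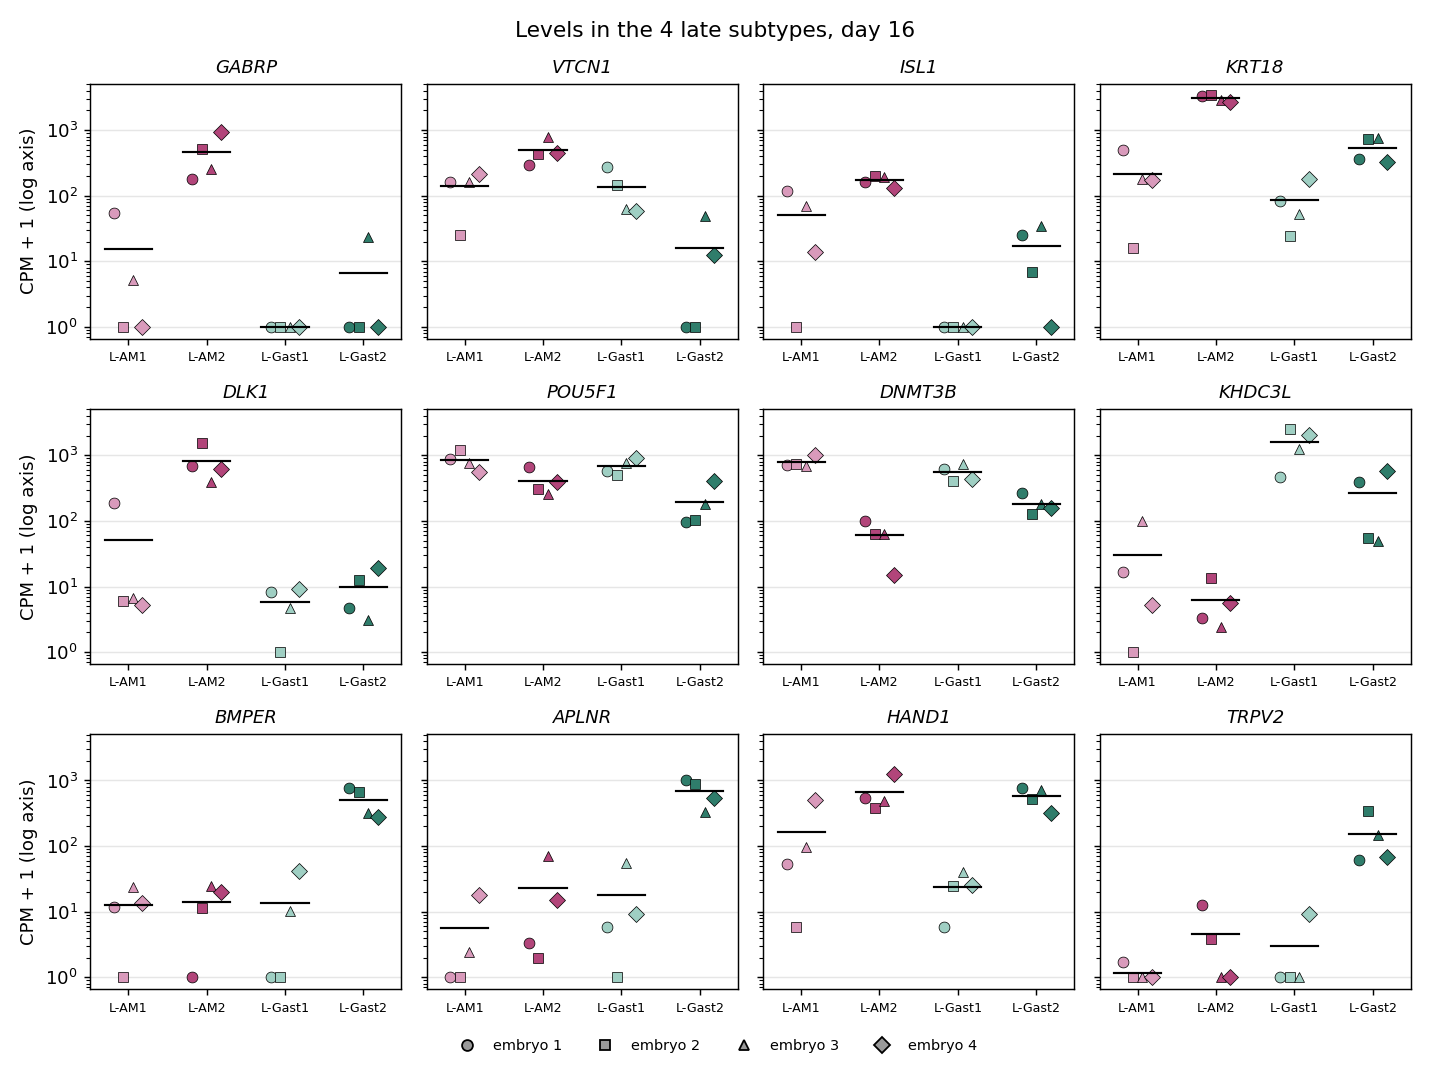
Level in CPM plus 1 on a log axis of 12 genes in the 4 late subtypes, with 1 point per embryo and a bar at the mean. GABRP, KRT18 and DLK1 are high in L-AM2, BMPER, APLNR and TRPV2 in L-Gast2, and POU5F1 and DNMT3B have their higher means in L-AM1 and L-Gast1.

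Shares of cells with a count were compared after each cell was thinned to 17000 counts, which left out 4 amnion and 5 gastrulating cells. GABRP had a count in 16.67% of L-AM1 cells (95% exact interval 3.58% to 41.4%), 85% of L-AM2 cells (62.1% to 96.8%), 0 of 14 L-Gast1 cells (up to 23.2%) and 7.14% of L-Gast2 cells. Late epiblast cells had a count in 6.59%. Without thinning the shares were 38.89%, 83.33%, 0%, 12.12% and 13.86% in the same order. Median counts per cell were 107300 in L-AM1, 65740 in L-AM2, 70180 in L-Gast1, 72270 in L-Gast2 and 89710 in late epiblast, so L-AM1 had the deepest cells.

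APLNR had a count in 92.86% of L-Gast2 cells (76.5% to 99.1%) but in 14.29% of L-Gast1, 10% of L-AM2 and 5.56% of L-AM1 cells. TRPV2 had a count in 67.86% of L-Gast2 cells (47.6% to 84.1%) and in 0 of 14 L-Gast1 and 0 of 38 amnion cells, which allow up to 23.2% and 9.25%. Late epiblast cells had a count in 5.49% for each gene. Without thinning, APLNR was found in 90.91% of L-Gast2 cells and 26.19% of amnion cells, and TRPV2 in 72.73% and 9.52%. VTCN1 had a count in 66.67% of L-AM1, 85% of L-AM2, 71.43% of L-Gast1 and 7.14% of L-Gast2 cells, and in 64.84% of late epiblast cells. MESP1 had one in 14.29% of cells in both gastrulating subtypes and in none of the 38 amnion cells. Without thinning, VTCN1 was found in 83.33%, 83.33%, 85.71% and 33.33% of the 4 subtypes, and MESP1 in 19.15% of gastrulating and 2.38% of amnion cells.

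**Figure D4:**
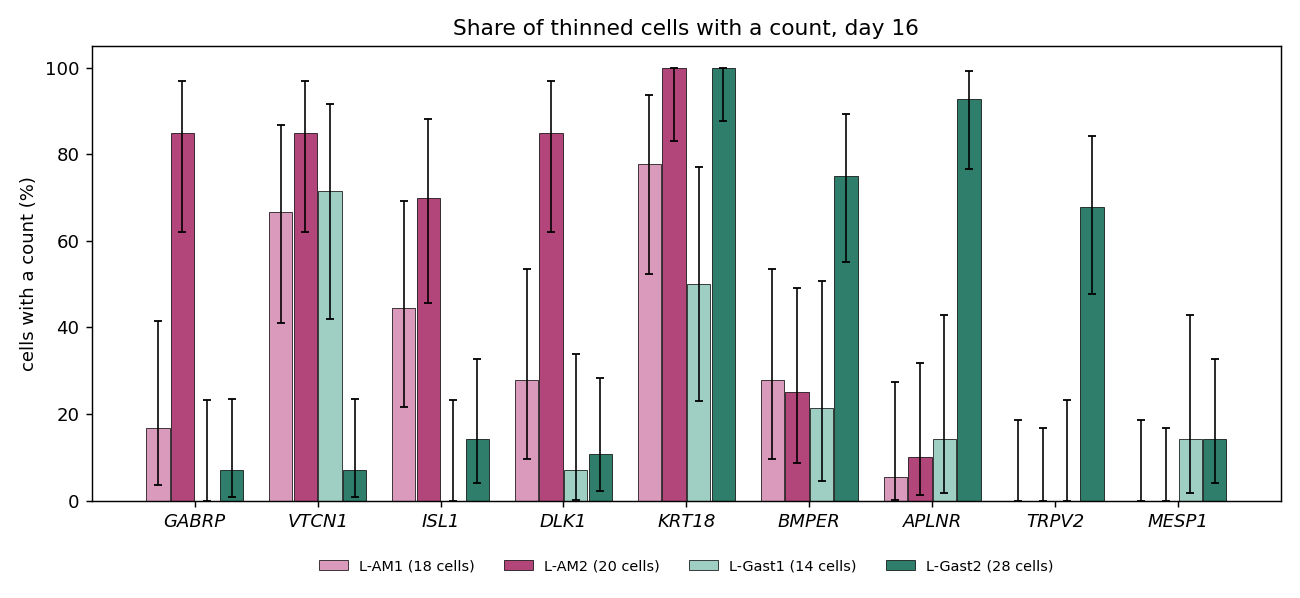
Percent of thinned cells with a count of each gene in the 4 subtypes, as bars from 0 with 95% exact binomial intervals over cells, which cover counting error only. GABRP and DLK1 stand high in L-AM2 at 85%, APLNR and TRPV2 in L-Gast2, and VTCN1 is low in L-Gast2 alone at 7.14%.

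Day 17 embryos held 6 late amnion cells (3, 2 and 1 in embryos 1, 2 and 3) and 1 late gastrulating cell, so no test was made there. GABRP stood at 718.1, 16.95 and 1874 CPM and KRT18 at 2048, 1107 and 1709 CPM in their amnion sums. The 1 gastrulating cell of embryo 2 had 0 counts of GABRP, VTCN1 and BMPER and 4 counts of APLNR among 9426 counts. It also had 14 counts of KRT18 (1485 CPM), a level above the amnion of embryo 2. Its 21 counts of KRT8 (2228 CPM) were above the 1888, 968.7 and 1635 CPM of the amnion sums.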

How the data were processed

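Single cells of cultured cynomolgus embryos were read by 3′ RNA-seq. The deposited table holds counts per gene and cell that the authors made, and STAR is the tool listed per the submitters' processing notes. The build, the counter and the tool's version were not given in the sources used here. The deposited annotation assigns each cell a type. The values are whole numbers, and no cells were removed. Doublets were not called, since cells were picked by hand. No 2 cells held identical values, and 0 per-sample columns were left unmapped.

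Of 30792 genes, 16890 are named by an identifier, and 3362 of these were given a symbol through the RefSeq gene table of the cynomolgus telomere-to-telomere assembly. These include WLS, CXCL14, RDX, EDNRB, NCAM2, GLIPR2, RNF43 and SOX17. Genes that stayed without a symbol hold 6.62% of counts.

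Counts were summed per embryo and side or subtype (at least 3 cells). They were tested with edgeR 4.0.16 in R 4.3.3 (filterByExpr, TMM, quasi-likelihood, embryo as block, Benjamini-Hochberg adjustment over all genes tested). Same-numbered sums are cells of the same embryo, and their deviations correlated at 0.161, 0.132, 0.105 and 0.228. Standard errors are the log2 difference divided by the square root of F. Intervals of ratios and shares are exact at 95% and cover counting error only. The main edgeR fit was also run on sums simulated with dispersions taken from these data. That run did not model single cells that dominate a sum, and no result here relies on it. Alternatives were DESeq2 1.42.0 and its size factors, no filter, thinned cells, no block, at least 5 cells per sum, single subtypes, each embryo left out, and removal of genes whose level in some other type was 8 times as high.

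The text names the 12 genes per direction with the largest called difference that moved the same way in every embryo and reached 20 CPM on the higher side in each. For subtypes it names 5 per direction. It also names the markers GABRP, VTCN1 and MESP1, up to 6 genes per list by lowest p, and regulators a list is named for. The comparison, its genes and the 23 lists (357 genes, 7 of them not matched) were chosen with earlier results of these data known.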

Additional observations from a re-analysis of the deposited data

How the results depend on the processing

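Between the sides, edgeR's 73 calls became 449 with DESeq2 (287 higher in amnion, 162 in gastrulating cells), 312 without a filter (187 and 125) and 127 in thinned cells (91 and 36). Leaving out 1 embryo gave 28 to 143 calls (23 to 92 and 5 to 51). Single subtypes gave 0 calls for L-AM1 alone (0 and 0), 246 for L-AM2 alone (176 and 70), 133 for L-Gast1 alone (108 and 25) and 93 for L-Gast2 alone (62 and 31). The causes were not tested, beyond fewer embryos or genes entering some fits. DESeq2's size factors in edgeR gave 73 calls. A minimum of 5 cells per sum changed no input, since every sum of a side held at least 8.

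Without the embryo as a block, 59 genes were called between the sides (46 and 13), 9 between the amnion subtypes (2 higher in L-AM1, 7 in L-AM2) and 95 between the gastrulating subtypes (21 higher in L-Gast1, 74 in L-Gast2). Of 70 genes followed one by one, 23 lost their call without the block.

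With 1 embryo left out, the amnion subtypes gave 21 to 108 calls (8 to 29 higher in L-AM1, 13 to 79 in L-AM2), against 6 with all. The gastrulating subtypes gave 34 to 215 (9 to 84 higher in L-Gast1, 25 to 131 in L-Gast2), against 151.

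Directions reversed only with single subtypes. With L-Gast1 alone the log2 difference was 1.56 for HGF, 1.09 for SIPA1L2, 0.04 for RDX and 2.19 for TMEM88. With L-AM1 alone it was -0.50 for KRT18, -0.02 for KRT19, -0.27 for KRT8, -0.48 for MEST and -0.15 for SLC2A1. Few cells limit the depth: 1 cell gave 17.5% to 49.66% of a sum, and genes such as TBXT and MESP1 had too few counts to be tested.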
